A study of Mus musculus with 2 samples.

Results

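The 32 genes described here encode the machinery of autophagy and of the lysosome. They were taken as a list of gene symbols, and all 32 were found among the 26440 genes of the deposited tables. RNA was sequenced from livers of BALB/c mice, at day 11 of life, in 1 library of wild-type (WT) mice and 1 of the genotype SRSF2-/-, described by the submitters as a liver-specific knockout and called the knockout library below. SRSF2 is a serine/arginine-rich protein that guides exon choice during pre-mRNA splicing. The sources used here name neither the driver of the deletion, nor the part of the gene removed, nor the number of animals per library. With 1 library per genotype no difference could be set against the spread between animals, and no p-value was computed. Levels are in FPKM, fragments scaled to transcript length and library size. Each ratio is the knockout FPKM over the wild-type FPKM, with a 95% exact Clopper-Pearson interval of the read ratio that covers counting error only.

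Autophagy encloses cytoplasm in a double membrane and delivers it to the lysosome. A kinase complex and a lipid kinase complex start the membrane, 2 ubiquitin-like conjugation systems attach proteins of the ATG8 family (the LC3 and GABARAP proteins) to it, and receptors such as p62 tie cargo to those proteins. In the lysosome a proton pump acidifies the lumen and acid hydrolases degrade what arrives. TFEB and TFE3 are transcription factors held in the cytoplasm by mTORC1, a kinase complex on the lysosome. In the nucleus they bind CLEAR elements, E-box sequences near the start sites of many lysosomal genes. The liver of the newborn uses autophagy to release nutrients between feeds. The tables hold RNA alone, so neither protein levels nor the flow of material through autophagy was measured.

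The promoters below are shown because 6 members carry the same 8-base CLEAR-type palindrome, TCACGTGA, in the window from 250 bases before to 50 after a start site. Windows were read from RefSeq (GRCm38.p6) for 27 of the 32 members, 33 windows in all. For Atg12, Becn1, Ctsb, Atp6v1h and Map1lc3a no window was used. Each sequence runs 5′ to 3′ on the strand of the gene with up to 40 bases beside the match, no further than 30 past the start site, and capitals mark TCACGTGA.
Ctsd: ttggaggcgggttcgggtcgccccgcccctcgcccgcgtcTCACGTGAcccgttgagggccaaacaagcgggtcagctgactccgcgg
Ctsa: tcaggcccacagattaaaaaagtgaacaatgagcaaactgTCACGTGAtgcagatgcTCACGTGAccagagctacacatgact
Gla: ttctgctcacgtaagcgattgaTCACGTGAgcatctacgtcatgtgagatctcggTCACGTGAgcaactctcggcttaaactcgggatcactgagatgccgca
Mcoln1: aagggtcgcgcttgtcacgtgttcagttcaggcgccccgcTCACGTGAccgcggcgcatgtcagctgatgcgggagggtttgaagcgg
Atp6v0d1: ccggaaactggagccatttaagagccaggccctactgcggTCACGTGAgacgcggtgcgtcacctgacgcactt
Atg3: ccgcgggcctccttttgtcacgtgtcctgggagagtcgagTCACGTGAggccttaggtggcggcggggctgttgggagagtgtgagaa
They lie at chr7:142387879-142387966 (minus strand) for Ctsd, chr2:164833720-164833802 (plus strand) for Ctsa, chrX:134601153-134601255 (minus strand) for Gla, chr8:3500433-3500520 (plus strand) for Mcoln1, chr8:105566035-105566108 (minus strand) for Atp6v0d1 and chr16:45158717-45158804 (plus strand) for Atg3. The match began 99 bases before the start site in Ctsd, 72 in Atg3, 46 in Mcoln1 and 4 in Atp6v0d1. Ctsa held 2 matches, beginning 13 bases before and 4 after one of its start sites, and Gla held 2, at 228 and 195 bases before. The motif reads the same on both strands. It stood in 6 of the 33 windows of members (18.2%) and in 0.974% of the 32851 windows of all genes. The core E-box CACGTG, contained in it, stood in 11 windows of members (33.3%) and in 7.15% of all. The antioxidant response element core TGACNNNGC, searched on both strands and read by the stress factor NRF2, stood in 5 windows of members (15.2%) and in 12.4% of all. A match is a string of letters and does not show that a factor binds there.

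In the knockout library Sqstm1, Atg12, Cd63 and 5 lysosomal hydrolase genes were at least 2-fold higher than in the wild-type library, and no member was 2-fold lower. Here 2-fold is counted on log2(FPKM + 1), which understates the change of low genes. These 8 of 32 members are 25%. Of the 12477 genes that reached 1 FPKM in at least 1 library (the tested genes), 19.2% were as high. For lower values the counts were 0 of 32 members and 2.95% of all genes. All 32 members reached that FPKM in both libraries, so the filter removed none. The median log2 ratio of the members was 0.69, beside 0.55 over all tested genes, and 18 members lay above that median and 14 below. The value was higher in the knockout library for 29 members, 90.6%, beside 84.5% of all genes. With every value taken relative to the all-gene median, 2 members stayed past 2-fold, Sqstm1 and Atg12 (6.25% of members, beside 5.67% of all genes), and 0 were lower (6.66% of all genes). The distance from all genes also moved with the pseudocount. With 0.1 FPKM in place of 1 FPKM the medians were 0.70 for the members and 0.68 for all genes, and the shares past 2-fold were 28.1% and 30.4%. With 5 FPKM the medians were 0.54 and 0.298, and the shares 18.8% and 6.3%. The members' share was therefore not steadily above that of all genes. The 12 genes of the autophagy core (initiation, conjugation and ATG8 family) had 1 member past 2-fold (8.33%, beside 19.2% of all genes). The median log2 ratio of the core stood at 0.54, which is -0.02 once the median of all genes is subtracted. The 16 hydrolase, membrane and proton pump genes had 6 past 2-fold (37.5%, beside 19.2% of all genes). The median of these 16 stood at 0.74, which is 0.19 once the median of all genes is subtracted. Taken relative to the all-gene median, 1 of the 12 and 0 of the 16 stayed past 2-fold, beside 5.67% of all genes. The medians of the smaller classes were 0.37 for the TFEB family, 1.09 for the receptors, 0.55 for the membrane proteins and 0.32 for the proton pump. These are descriptions of lists chosen with results known, and the difference between the classes was not tested.

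**Figure D1:**
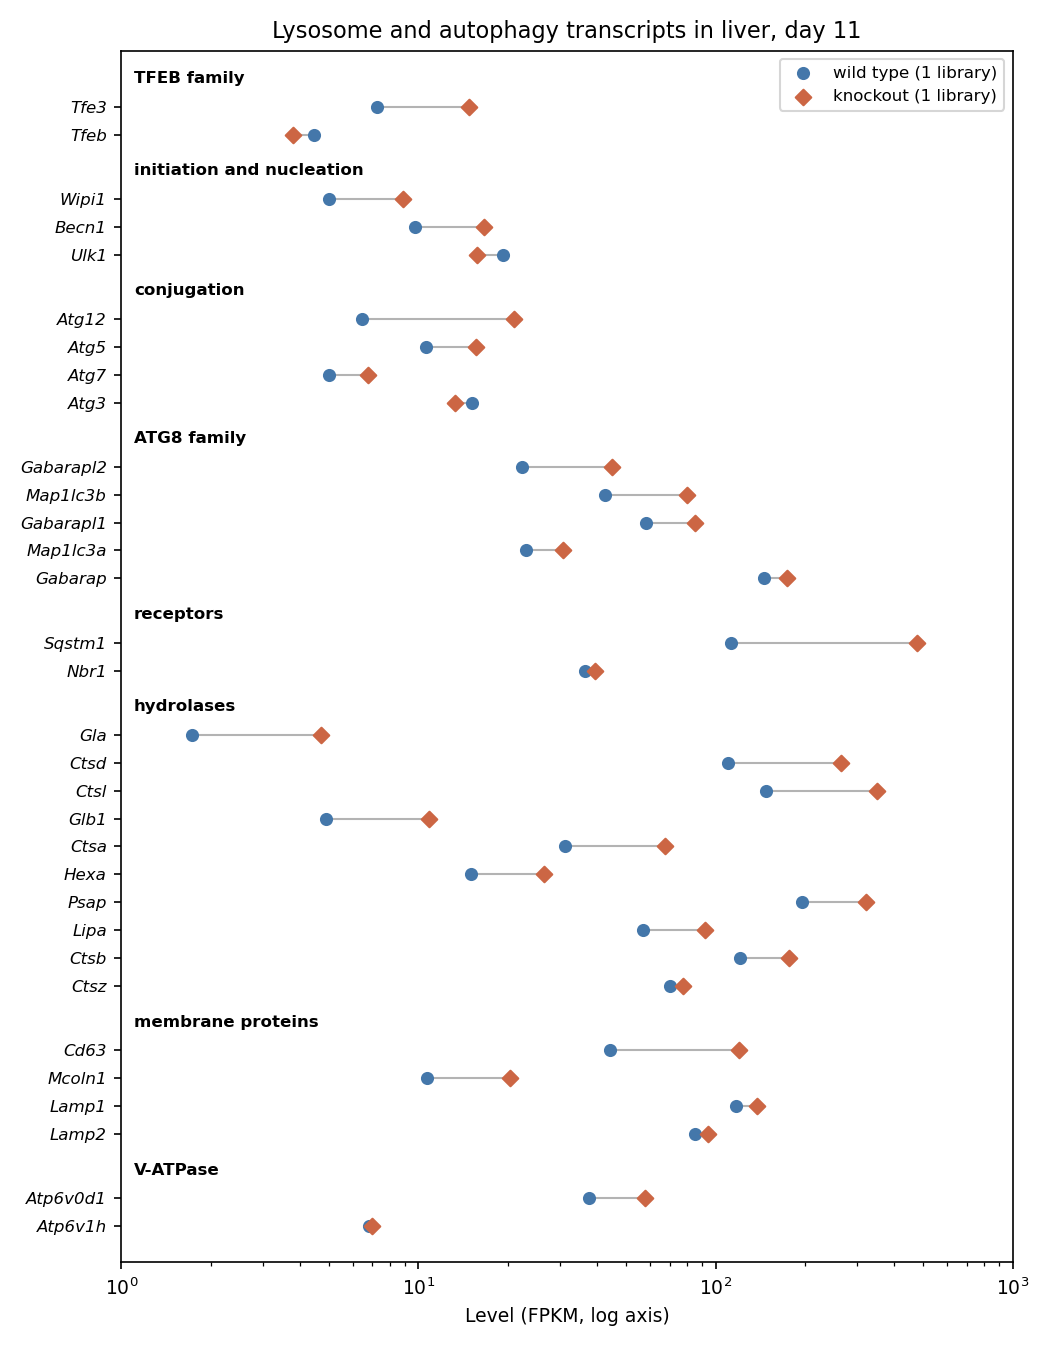
Level of each member in the wild-type (circles) and knockout (diamonds) library, in FPKM on a log axis, grouped by role. Sqstm1 spans 113 to 478 FPKM, while Atp6v1h lies at 6.82 and 6.99 FPKM. Tfeb, Ulk1 and Atg3 are the members whose diamond lies to the left.

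Some facts of the whole libraries bear on all of these values. The libraries held 22407743 and 22111605 reads, and a member had between 139 and 26195 reads. The level of Srsf2, the targeted gene, was 27.9 and 11.8 FPKM. The 20 genes with most reads took 37.5% and 21.5% of the reads. Of the hepatocyte markers, 8 of 8 had reads and their summed level was 99409 and 46752 FPKM, of which Alb made up 50399 and 25492 FPKM. Tat (122 and 386 FPKM) and Cps1 (515 and 599 FPKM) were higher in the knockout library and the other 6 lower. Xist stood at 27.4 and 0.0138 FPKM and the Y-linked Ddx3y had 0 and 859 reads. By these transcripts the wild-type library was female and the knockout library male. Sex therefore changed together with genotype, and the 2 cannot be told apart. Markers of the exocrine pancreas summed to 0.612 and 566 FPKM, and those of skeletal muscle to 0.158 and 64.3 FPKM. The part of sex and of other tissue in the differences was not tested. In bulk RNA, fewer cells of a type and less RNA per cell cannot be told apart.

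Of the 2 transcription factors of the TFEB family, Tfe3 was higher in the knockout library and Tfeb was not detectably different on the deposited scale, while relative to all genes Tfeb was lower. Tfe3 had 657 reads (7.23 FPKM) in the wild-type and 1327 reads (14.8 FPKM) in the knockout library, a ratio of 2.04 (1.86 to 2.25). Tfeb had 280 reads (4.44 FPKM) and 235 reads (3.77 FPKM), a ratio of 0.849 (0.711 to 1.01), so its interval reached 1. That interval lay below the median ratio of all genes, and the log2 ratio of Tfeb was -0.74 relative to them, and 89.2% of tested genes had a higher one. Tfe3 thus stood at 1.63 times the level of Tfeb in wild-type liver and at 3.92 times in knockout liver. The ratio of Tfe3 relative to that of Tfeb was 2.41 (1.98 to 2.93). Such a ratio of 2 ratios uses reads alone and does not depend on how the libraries were scaled. The 2 genes are the extremes of their class and were compared for that reason, so the value is a description.

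Autophagy begins with the kinase ULK1, the lipid kinase partner Beclin 1 (Becn1) and WIPI1, which binds the phospholipid made by that lipid kinase. Ulk1 had 2684 reads (19.3 FPKM) in the wild-type and 2172 reads (15.8 FPKM) in the knockout library, a ratio of 0.819 (0.774 to 0.867). It was the member with the lowest ratio of all 32, and 90.7% of all tested genes had a higher log2 ratio. Becn1 stood at 9.71 and 16.6 FPKM, a ratio of 1.71 (1.53 to 1.91). Wipi1 stood at 4.9998 and 8.86 FPKM, a ratio of 1.77 (1.51 to 2.08). Relative to all genes the log2 ratios of Becn1 and Wipi1 were each 0.16, and 36.5% of tested genes had a higher one. Ulk1 was the most abundant of these 3 in the wild-type library, and Becn1 in the knockout library.

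The conjugation genes held both a member past 2-fold and a member that was lower, and relative to the median of all genes Atg12 was the 1 of the 4 that was higher. Atg12 encodes the ubiquitin-like protein that is joined to ATG5 by the E1-like enzyme ATG7. It had 425 reads (6.43 FPKM) in the wild-type and 1366 reads (20.9 FPKM) in the knockout library, a ratio of 3.25 (2.92 to 3.64). Only 5.61% of tested genes had a higher log2 ratio. Its partner gene Atg5 stood at 10.6 and 15.7 FPKM, a ratio of 1.48 (1.34 to 1.64), and Atg7 at 5.001 and 6.74 FPKM, a ratio of 1.35 (1.20 to 1.51). Atg3, the E2-like enzyme that attaches ATG8 proteins to lipid, stood at 15.1 and 13.2 FPKM, a ratio of 0.878 (0.792 to 0.972). The genes of the 2 proteins that form the ATG12-ATG5 conjugate therefore differed in their ratios, with intervals that did not overlap. In the wild-type library Atg12 stood at 0.426 times the level of Atg3, and in the knockout library at 1.58 times. The ratio of Atg12 relative to that of Atg3 was 3.71 (3.19 to 4.30).

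All 5 ATG8 family genes were higher in the knockout library as deposited. Relative to the median of all genes Gabarapl2 and Map1lc3b were higher, Gabarap and Map1lc3a lower, and Gabarapl1 lay close to it (-0.007). With a pseudocount of 0.1 FPKM, Gabarapl1 stood at 0.55, beside 0.68 over all genes. No member of the family was past 2-fold. Gabarap, the most abundant, had 5408 reads (145 FPKM) in wild-type liver and 6418 reads (174 FPKM) in knockout liver, a ratio of 1.20 (1.16 to 1.25). Gabarapl1 stood at 58.2 and 85.5 FPKM, a ratio of 1.47 (1.40 to 1.54). Gabarapl2, whose product is also called GATE-16, stood at 22.4 and 44.7 FPKM, with an interval of its ratio from 1.81 to 2.22. Among the LC3 genes Map1lc3b stood at 42.5 and 80.3 FPKM, a ratio of 1.89 (1.79 to 1.998), and Map1lc3a at 22.98 and 30.6 FPKM, a ratio of 1.33 (1.20 to 1.48). With their sum going from 291 to 415 FPKM, the make-up of the family differed between the libraries. Gabarap made up 49.8% of the summed FPKM in wild-type liver and 41.96% in knockout liver. The share of Map1lc3b was 14.6% and 19.3%, and that of Gabarapl2 was 7.68% and 10.8%. The shares of Gabarapl1 (19.998% and 20.6%) and Map1lc3a (7.89% and 7.37%) were nearer to each other. The ratio of Gabarapl2 relative to that of Gabarap was 1.67 (1.499 to 1.853).

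**Figure D2:**
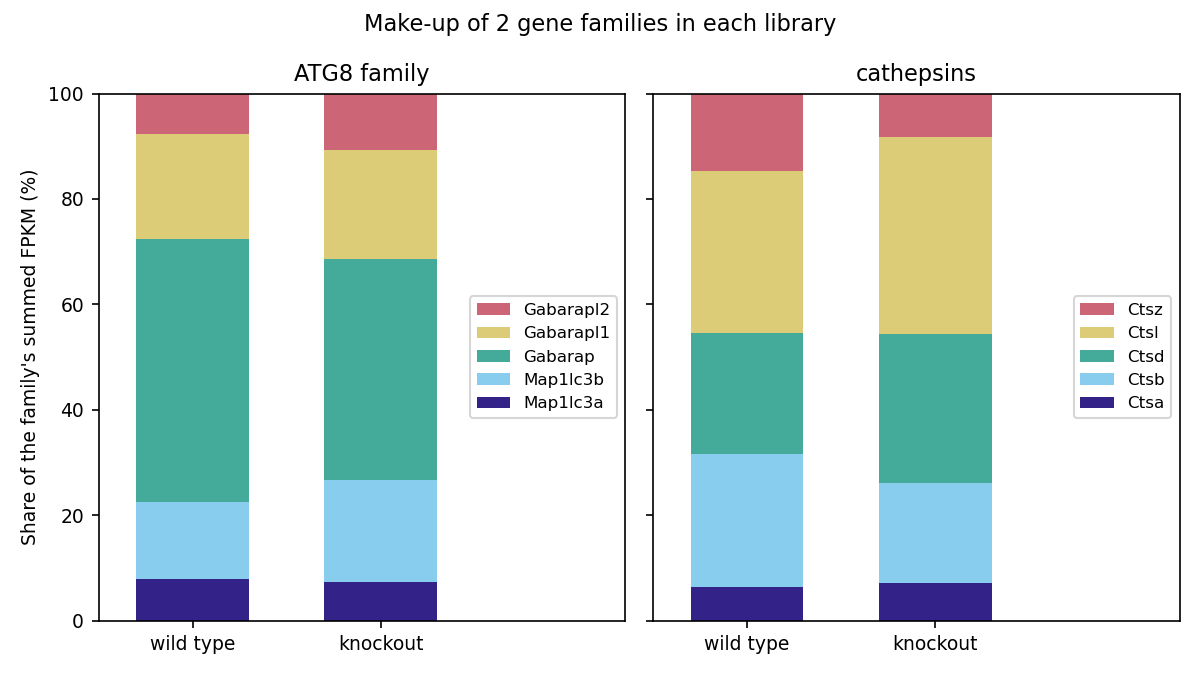
Share of each gene in the summed FPKM of the ATG8 family (left) and of the 5 cathepsin members (right), in percent, in the wild-type and the knockout library. Gabarap makes up 49.8% and 41.96% of its family, and Ctsz makes up 14.6% and 8.29% of the cathepsins.

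The receptors of selective autophagy had the widest difference in ratio between 2 members of a class, with an interval that overlapped that of the conjugation genes. Sqstm1 encodes p62, which binds ubiquitin and ATG8 proteins and is itself degraded with its cargo. It had 6275 reads (113 FPKM) in wild-type liver and 26195 reads (478 FPKM) in knockout liver, a ratio of 4.22 (4.11 to 4.34). This was the highest ratio of the 32 members, and 2.51% of tested genes had a higher log2 ratio. Sqstm1 was the member past 4-fold, beside 2.76% of all tested genes. Nbr1 encodes a receptor of related build that binds the same partners. It had 4687 reads (36.5 FPKM) and 4997 reads (39.4 FPKM), a ratio of 1.08 (1.04 to 1.12), which lay below the median ratio of all genes. Sqstm1 stood at 3.10 times the level of Nbr1 in wild-type liver and at 12.1 times in knockout liver. The ratio of Sqstm1 relative to that of Nbr1 was 3.92 (3.73 to 4.11). Among the levels of the 32 members Sqstm1 took place 6 in the wild-type library and place 1 in the knockout library.

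**Figure D3:**
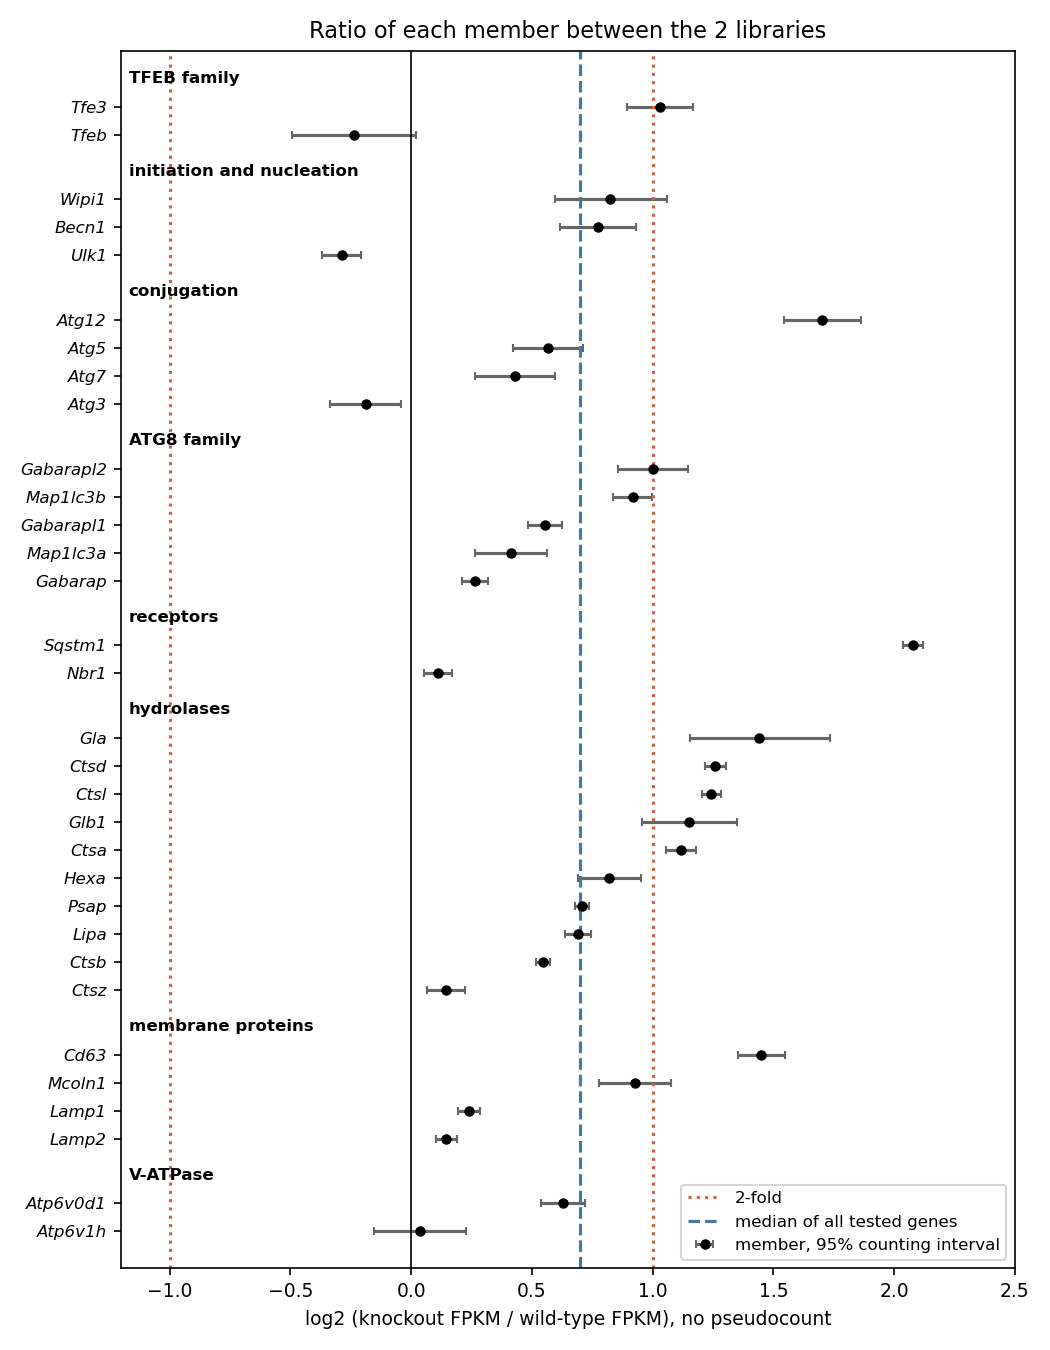
log2 ratio of the knockout to the wild-type FPKM of each member without a pseudocount, grouped by role, with 95% counting intervals. Dotted lines mark 2-fold and the dashed line the median of all tested genes on this scale, 0.70. Sqstm1, Atg12, Cd63, Ctsd, Ctsl, Ctsa and Gla have intervals beyond 2-fold.

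Of the 10 hydrolase genes 5 were past 2-fold (50%, beside 19.2% of all genes) and 8 lay above the median of all genes. The median log2 ratio of the 10 was 0.89, or 0.34 relative to all genes. After centring 0 of them were past 2-fold, beside 5.67% of all genes. Of the 8, Lipa and Psap lay nearest to the median of all genes, at 0.13 and 0.15 relative to it. These distances depend on the pseudocount. With 0.1 FPKM in place of 1 FPKM, Lipa and Psap stood at 0.69 and 0.71, beside 0.68 over all genes. Ctsd, the aspartic protease cathepsin D, had 5718 reads (110.3 FPKM) in wild-type liver and 13534 reads (264 FPKM) in knockout liver, a ratio of 2.40 (2.32 to 2.47). Ctsl, the cysteine protease cathepsin L, had 7723 reads (147.7 FPKM) and 18073 reads (349.8 FPKM), a ratio of 2.37 (2.31 to 2.43). Ctsa, which encodes the carboxypeptidase that also protects beta-galactosidase and neuraminidase, stood at 31.1 and 67.4 FPKM, a ratio of 2.17 (2.08 to 2.27). Ctsb, the cysteine protease cathepsin B, stood at 121 and 176 FPKM, a ratio of 1.46 (1.43 to 1.49). The carboxypeptidase gene Ctsz stood at 70.1 and 77.5 FPKM, a ratio of 1.105 (1.05 to 1.17). The 5 cathepsins together went from 480 to 935 FPKM. Ctsl and Ctsd took larger shares of that sum in the knockout library (37.4% against 30.8%, and 28.3% against 22.98%). Ctsb and Ctsz took smaller ones (18.8% against 25.2%, and 8.29% against 14.6%).

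The glycosidases were scarcer than the cathepsins. Gla, the alpha-galactosidase that is lost in Fabry disease, had 139 reads (1.73 FPKM) in the wild-type and 373 reads (4.69 FPKM) in the knockout library, a ratio of 2.72 (2.23 to 3.32). Glb1, the beta-galactosidase used as a marker of senescent cells, stood at 4.88 and 10.8 FPKM, a ratio of 2.22 (1.94 to 2.55). Hexa, the alpha subunit of beta-hexosaminidase, stood at 15.0 and 26.5 FPKM, a ratio of 1.77 (1.61 to 1.93). Glb1 lay just inside the 2-fold rule at a log2 ratio of 1.01, and Gabarapl2 (0.97) and Tfe3 (0.94) lay just outside. Lipa, the acid lipase that frees cholesterol and fatty acids from lipoprotein particles, stood at 56.9 and 91.8 FPKM, a ratio of 1.61 (1.55 to 1.67). Psap, the precursor of the saposins that present lipids to these enzymes, was the most abundant of the class in the wild-type library at 196 FPKM. It stood at 319.8 FPKM in the knockout library, where Ctsl was higher, and its ratio was 1.63 (1.60 to 1.67). Gla and Ctsz were the extremes of the class, and the ratio of Gla relative to that of Ctsz was 2.46 (2.01 to 3.01).

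Among the membrane proteins the tetraspanin and the ion channel had higher ratios than the 2 structural glycoproteins, which lay below the median of all genes. Cd63, a tetraspanin of late endosomes and lysosomes that is also carried on exosomes, had 1153 reads (43.99 FPKM) in the wild-type and 3115 reads (120.3 FPKM) in the knockout library, a ratio of 2.73 (2.55 to 2.93). Mcoln1, the calcium channel mucolipin 1, stood at 10.7 and 20.3 FPKM, a ratio of 1.90 (1.71 to 2.11). Lamp1 and Lamp2 encode the main proteins of the lysosomal membrane. Lamp1 stood at 117 and 138 FPKM, a ratio of 1.18 (1.14 to 1.22), and Lamp2 at 85.2 and 94.3 FPKM, a ratio of 1.11 (1.07 to 1.14). Cd63 stood at 0.516 times the level of Lamp2 in wild-type liver and at 1.28 times in knockout liver, and its ratio relative to that of Lamp2 was 2.47 (2.297 to 2.663). The proton pump was represented by 2 subunits. Atp6v0d1, in the membrane sector, stood at 37.4 and 57.9 FPKM, a ratio of 1.55 (1.45 to 1.65). Atp6v1h, in the cytosolic sector, stood at 6.82 and 6.99 FPKM, a ratio of 1.03 (0.899 to 1.17). Its interval held 1 on the deposited scale but lay below the median ratio of all genes, and its log2 ratio relative to them was -0.52, and 83.3% of tested genes had a higher one.

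The 6 members whose windows hold TCACGTGA covered most of the range of the list. Their ratios were 2.72 for Gla, 2.40 for Ctsd, 2.17 for Ctsa, 1.90 for Mcoln1, 1.55 for Atp6v0d1 and 0.878 for Atg3. The first 3 were past 2-fold, beside 19.2% of all tested genes. Relative to the all-gene median their log2 ratios were 0.51, 0.70 and 0.54, so none stayed past 2-fold. Atg3 was one of the 3 members that were lower in the knockout library. The median log2 ratio of the 6 was 0.96, beside 0.68 for the 21 members with a window and no match. Of those 21 members 4 were past 2-fold, beside the same 19.2% of all genes. The difference between members with and without the motif was not tested. Sqstm1 and Cd63 had a window with no match to any of the 3 motifs, and sequence beyond 250 bases before the start site was not searched. Lamp1, with a ratio of 1.18, held the core CACGTG and not the 8-base palindrome.

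Each member stood on 1 RefSeq accession in the tables, although RefSeq lists over 1 curated transcript for 19 of the 32. Lamp2, whose alternative last exons give proteins with different parts in autophagy, had 4 and was counted as 1. The values therefore do not show whether splicing of a member differed. Tfe3, Lamp2 and Gla are X-linked, and without them 7 of 29 members were past 2-fold (24.1%, beside 19.2% of all genes). The median log2 ratio of the 29 was 0.68, beside 0.55 over all genes. After centring 2 of the 29 stayed past 2-fold, beside 5.67% of all genes.

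Macrophages are rich in lysosomes, so their markers were read beside the members. Of 16 listed markers 14 were matched (Cd68 and Csf1r were not analysed here). All 14 lay above the median of all genes, with a median log2 ratio of 1.34. Of them 9 were past 2-fold (64.3%, beside 19.2% of all genes), and 3 after centring (beside 5.67% of all genes). Their summed level was 450 FPKM in wild-type and 1199 FPKM in knockout liver, 0 of them were at 0 reads, and single markers had ratios from 1.63 for Clec4f to 4.94 for Ctss. Clec4f and Vsig4, genes of resident Kupffer cells, had levels of 43.0 and 70.1 FPKM and of 29.5 and 57.8 FPKM. Bile duct markers summed to 33.9 and 69.0 FPKM, and matrix-cell markers to 154 and 425 FPKM. Endothelial markers summed to 74.2 and 89.7 FPKM, with a median log2 ratio of -0.19 relative to all genes. Neutrophil markers (6 of 6 lower) summed to 207 and 108 FPKM, and those of red cell precursors to 415 and 237 FPKM. The part of these cells in the levels of the hydrolases, Cd63 and Sqstm1 was not tested.

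Other genes of the same pathways were read from 7 lists of 184 genes, of which 182 were matched and 174 tested. Of these 29 were past 2-fold higher (16.7%, beside 19.2% of all genes) and 1 lower, with a median log2 ratio of 0.51. Among other hydrolases and activators 10 of 43 were higher (23.3%), 1 was lower and the median was 0.51. The cysteine protease gene Ctss, also a macrophage marker, stood at 21.2 and 104.8 FPKM, and Arsa, the arylsulfatase of sulfatide breakdown, at 2.09 and 12.2 FPKM. Cpq, a secreted carboxypeptidase, went the other way at 27.6 and 7.46 FPKM, a ratio of 0.270 (0.241 to 0.302). Ctsh, the aminopeptidase cathepsin H and the most abundant of that list in the wild-type library, stood at 109 and 146 FPKM. The progranulin gene Grn, at 66.0 and 177 FPKM, was the most abundant in the knockout library. The 10 hydrolases among the members had a median of 0.89.

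Of other membrane proteins 2 of 22 were higher (9.09%, beside 19.2% of all genes) and 0 lower, with a median log2 ratio of 0.44. They were Npc2, which hands cholesterol to the lysosomal membrane (15.8 and 43.2 FPKM), and Cln3 (3.03 and 8.61 FPKM). Ostm1, a subunit of the lysosomal chloride exchanger, followed at 2.68 and 6.12 FPKM. Slc36a1, an amino acid exporter, stood at 8.83 and 4.38 FPKM, and Cd164 was the most abundant at 65.0 and 81.4 FPKM. Of other V-ATPase subunits 2 of 16 were higher (12.5%, beside 19.2% of all genes) and 0 lower, with a median of 0.56. These were Atp6v1f (41.6 and 90.7 FPKM) and Atp6v1e1 (53.4 and 109.9 FPKM), and Atp6v0e stood beside them at 26.6 and 54.2 FPKM. Of these 16 subunits, Atp6v0e2 (6.33 and 4.78 FPKM) had a lower ratio than Atp6v1h.

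Among other autophagy core genes 2 of 32 tested were higher (6.25%, beside 19.2% of all genes) and 0 lower, with a median of 0.49. Trp53inp1, a p53 target whose product binds ATG8 proteins, stood at 6.11 and 80.8 FPKM, a ratio of 13.2 (12.4 to 14.2). Its relative Trp53inp2 stood at 24.2 and 51.5 FPKM, and Ulk2, the second ULK kinase, at 11.5 and 7.25 FPKM. Vamp8, a fusion protein of the autophagosome and lysosome, was the most abundant in the knockout library at 137.6 FPKM, from 74.5 FPKM in the wild-type library. Of 14 other receptors 2 were higher (14.3%, beside 19.2% of all genes) and 0 lower, with a median of 0.69. These were Stbd1, which binds glycogen (9.34 and 31.6 FPKM), and Ncoa4, which brings ferritin to the lysosome (10.9 and 36.3 FPKM). The mitochondrial receptor genes Bnip3l and Fundc1 had levels of 18.6 and 34.7 FPKM and of 2.69 and 5.77 FPKM. Phb2 was the most abundant of that list at 100.6 and 148.7 FPKM.

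**Figure D4:**
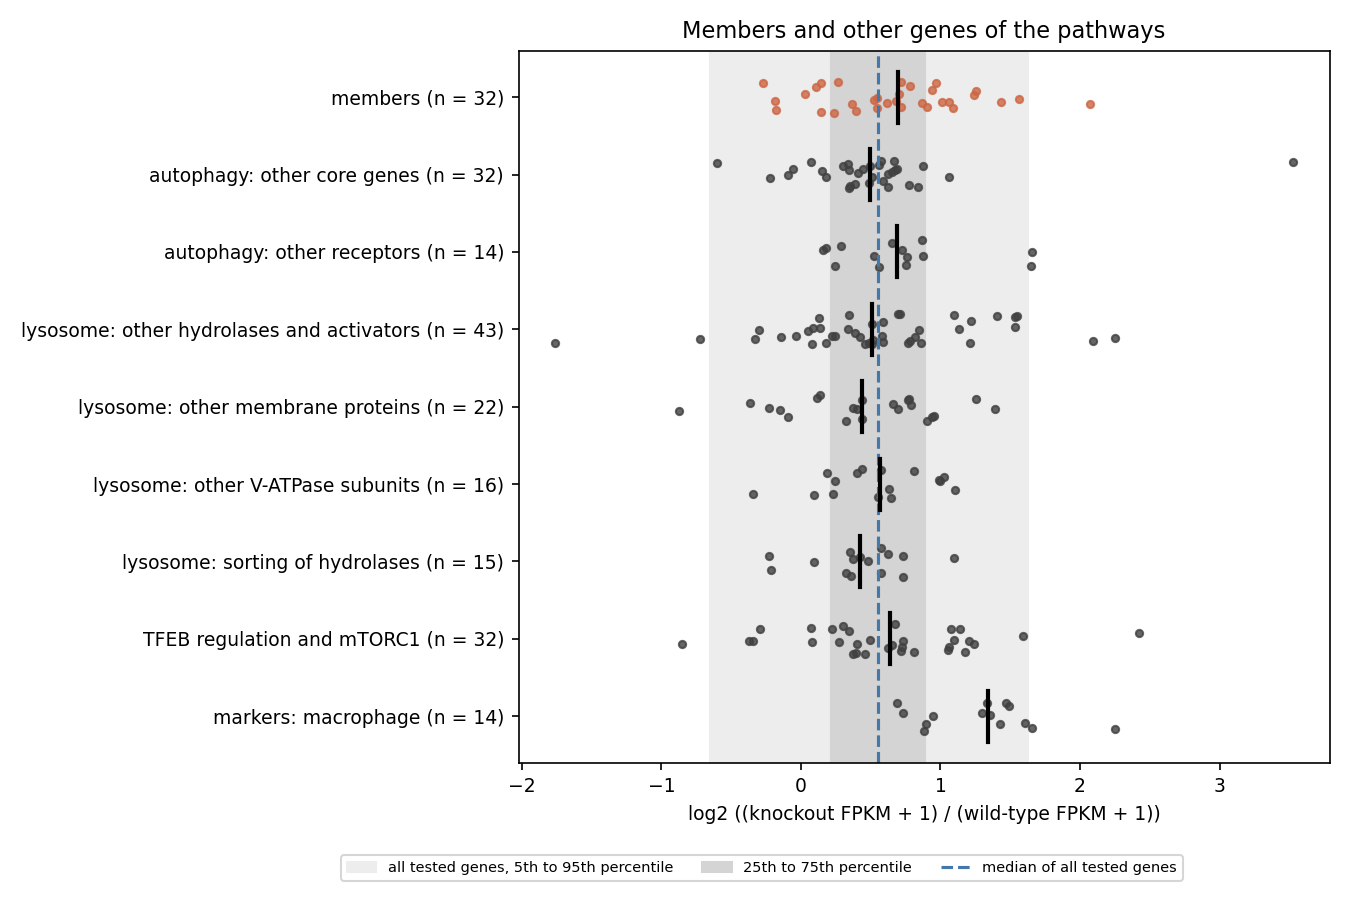
log2((knockout FPKM + 1) / (wild-type FPKM + 1)) of the members, of 7 other pathway lists and of macrophage markers, with 1 point per tested gene and a bar at each list's median. Grey bands show the spread of all tested genes and the dashed line their median, 0.55. The medians of the pathway lists lie between 0.42 and 0.69, and that of the macrophage markers lies at 1.34.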

How the data were processed

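Liver RNA of 1 wild-type and 1 SRSF2-/- library was analysed, grouped by the genotype in the labels. The submitters' processing notes name Bowtie 0.12.2 and mouse build mm9. The sources used here do not say how reads were counted, on which annotation and strand, or how those that fit several genes were treated. Reads shared with related or overlapping genes may therefore be split or lost. The deposited read counts per RefSeq accession are whole numbers, per the file headers. The deposited FPKM values were made by the authors, per the file headers, and scale reads to transcript length and depth.

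Accessions were named from a RefSeq gene table (GRCm38.p6, no coordinates used) and GENCODE tables, 23419 of 26449, and summed per gene. The FPKM worth of 1 read differed by a factor of 1.012 between the tables, and scales the Clopper-Pearson intervals. Reads of amplified libraries are not independent molecules, so intervals cover counting error only. The log2 ratio used a pseudocount of 1 FPKM and genes with at least 1 FPKM in either library. Ratios of 2 read ratios carry 95% intervals of the log odds ratio by the normal approximation on reads. All members are described; of the other lists, the members with the largest absolute log2 ratios and the most abundant are named, and Ulk2, Bnip3l, Slc36a1, Atp6v0e2, Grn, Alb, Tat, Cps1, Clec4f and Vsig4 were chosen after their values were seen. Members and lists were chosen with earlier results of these data known. The computation was tested on simulated data. Software was scipy 1.17.1, pandas 2.3.3, numpy 2.4.6, matplotlib 3.10.9 and Python 3.11.15. Alternatives changed the pseudocount, filter, scaling, accession choice and size rule.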

Additional observations from a re-analysis of the deposited data

How the results depend on the processing

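The count of 8 members past 2-fold higher became 2 after centring on the median of all tested genes, 3 after rescaling without the 20 most abundant genes, 18 with a rule of 1.5-fold (beside 47.4% of all genes) and 1 with a rule of 4-fold. With a pseudocount of 0.1 or 5 FPKM, no filter on low values, a filter of 5 FPKM, a common sum, the highest accession or no X-linked members (this last chosen after seeing the data) it lay between 6 and 9, while the share of all genes moved more, between 6.3% and 30.4%. The members' share was below that of all genes with a pseudocount of 0.1 FPKM (28.1% beside 30.4%), after scaling to a common sum (25% beside 26.2%) and without the 20 most abundant genes (9.38% beside 9.99%). It was above with 5 FPKM (18.8% beside 6.3%). Sqstm1 and Atg12 were past 2-fold under each of these alternatives except the 4-fold rule, which Sqstm1 alone passed. No member was 2-fold lower under any of them. The median log2 ratio of 0.69 became 0.54 with a pseudocount of 5 FPKM (all genes 0.298), 0.14 after centring (all genes 0) and 0.36 without the 20 most abundant genes (all genes 0.28). Less the median of all genes, it was 0.14 as reported, 0.24 with 5 FPKM, 0.014 with 0.1 FPKM, 0.066 after scaling to a common sum and 0.08 without the 20 most abundant genes. Centring turned the sign of 11 members that were not past 2-fold, among them Gabarap, Nbr1, Ctsb, Ctsz, Lamp1 and Lamp2, and rescaling without the 20 most abundant genes turned 6. Over all genes, 2396 were past 2-fold higher and 368 lower as deposited, and 708 and 831 after centring. No paired analysis was possible because each genotype has 1 library. The intervals of Atp6v1h and Tfeb held a ratio of 1 on the deposited scale. After centring their log2 ratios were -0.52 and -0.74.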

Other observations

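Genes that regulate TFEB and mTORC1, and genes that sort hydrolases to the lysosome, were read as lists beside the members. Of 32 tested TFEB and mTORC1 genes 10 were at least 2-fold higher (31.3%, beside 19.2% of all genes) and 0 lower, with a median log2 ratio of 0.64. After centring 2 were higher and 1 lower, beside 5.67% and 6.66% of all genes. Ddit4, a stress-induced inhibitor of mTORC1, stood at 4.92 FPKM in wild-type and 30.8 FPKM in knockout liver, a ratio of 6.26 (5.42 to 7.25). Rragd, a small GTPase that recruits TFEB to the lysosome, had 66 and 463 reads and stood at 0.493 and 3.50 FPKM, a ratio of 7.10 (5.48 to 9.33). Tbc1d7, a subunit of the TSC complex, stood at 3.13 and 8.79 FPKM. Rragc, a relative of Rragd, stood at 8.82 and 20.7 FPKM, and the sestrin gene Sesn2, a leucine sensor, at 3.12 and 7.59 FPKM. The 2 catalytic subunits of the energy sensor AMPK lay on opposite sides. Prkaa1 stood at 2.46 and 6.27 FPKM, a ratio of 2.55 (2.27 to 2.88), and Prkaa2 at 4.55 and 2.08 FPKM, a ratio of 0.457 (0.409 to 0.511). Foxo3, a transcription factor with autophagy genes among its known targets, stood at 3.44 and 9.23 FPKM, and Lamtor1, the most abundant of the list in the knockout library, at 33.8 and 60.0 FPKM. Rragc, Sesn2, Prkaa1, Prkaa2 and Foxo3 were chosen after their values were seen.

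The 15 sorting genes had a median log2 ratio of 0.42. Of them 1 was at least 2-fold higher (6.67%, beside 19.2% of all genes) and 0 lower. This was Igf2r, the large mannose 6-phosphate receptor and imprinted clearance receptor of IGF2, at 7.96 and 18.2 FPKM, a ratio of 2.29 (2.17 to 2.42). The small mannose 6-phosphate receptor gene M6pr, the most abundant of the list, stood at 32.2 and 48.3 FPKM, a ratio of 1.501 (1.42 to 1.59). Ap1m1, an adaptor subunit, stood at 15.9 and 27.1 FPKM, and the sorting receptor gene Sorl1 at 0.391 and 1.31 FPKM. These are values of 2 libraries with no replicate check.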
